A study of Mus musculus with 4 samples.

Results

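The Schlafen family genes were followed on 4 Affymetrix gene arrays hybridised with RNA of the B16-OVA line, a melanoma of the mouse engineered to make ovalbumin. The family was taken as 7 genes, Slfn1, Slfn2, Slfn3, Slfn4, Slfn5, Slfn8 and Slfn9, found by their symbols in the platform's annotation. Of the 7 genes, 6 had a probe of their own among the 22180 genes compared. Slfn9 had none and was measured only by a probe that the annotation gives to Slfn9 and Slfn8 together. A further probe is annotated to Slfn5 and to its opposite-strand transcript Slfn5os, and these 2 probes with several symbols are reported apart. The groups were 2 arrays of mock transfected cells and 2 arrays of cells transfected for 6 hours with AT90ES, which per the titles and the treatment text is 90mer duplex DNA. The carrier was Lipofectamine, a cationic lipid. The labels repeat a single treatment text on every array and do not say what the mock transfection contained, so DNA and lipid cannot be told apart as sources of a difference. Every array came from the same line and time point, and the labels name no separate cultures.

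Schlafen proteins share a core domain that binds and, in some members, cuts RNA, tRNA above all. The mouse genes are grouped by protein length. Slfn1 and Slfn2 are short, Slfn3 and Slfn4 intermediate, and Slfn5, Slfn8 and Slfn9 long, with an added helicase-like part. Several are known as targets of type I interferon in lymphocytes, macrophages and fibroblasts, and they have been tied to cell growth arrest and to restriction of viruses.

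The deposited levels were on a log2 scale. The median over all probes lay between 4.83 and 4.91 on the 4 arrays. As a reference for genes not expressed, the 95th percentile of 1105 olfactory receptor genes lay between 4.85 and 5.07. Of all genes 52.8% lay above this percentile on all 4 arrays. All 7 melanocyte markers lay above it on all 4 arrays. Of 21 leukocyte and platelet markers 13 lay under it on all 4 arrays and 6 above it on all 4. Among those under it was Ptprc, the common leukocyte antigen, with mean log2 levels of 3.72 in mock and 3.89 in AT90ES cells. Among those above it were Cd68, with means of 6.41 in mock and 6.26 in AT90ES cells, and Coro1a, with 6.28 and 6.14. The arrays measure pooled cells, in which fewer expressing cells and less RNA per cell cannot be told apart.

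No Schlafen gene passed the test in either direction. In limma with Benjamini-Hochberg adjustment over all genes, 0 of the 6 genes with their own probe were higher in AT90ES cells, where 92 of 22180 genes (0.415%) were. None of the 6 was lower, and neither was any other gene (0%). The smallest change among the 92 genes called was 0.97 on the log2 scale. Larger changes could also fail, as that of Irf1 did at 1.23 (limma adjusted p = 0.0622). A count of 0 therefore does not by itself show that changes under or above 0.97 were absent. At an unadjusted p under 0.05 the family again gave 0 genes in either direction, where 999 of all genes were higher (4.5%) and 1017 lower (4.59%). None of the 6 had both AT90ES arrays above both mock arrays, as 17.7% of all genes did. The changes of the 6 genes ran from -0.25 to 0.14 on the log2 scale with a median of 0.04, beside a median of -0.02 over all genes. For 5 of the 6 genes the larger gap between replicates exceeded the change, as it did for 72.0% of all genes. The 95% intervals of all 6 lay between a 2-fold fall and a 2-fold rise. For Slfn2, Slfn4 and Slfn5, which lay under the olfactory receptor percentile on every array, the intervals describe the probe's reading and set no limit on the change of the transcript. The intervals are not adjusted for the number of genes, and 98.0% of all genes had an upper bound under a 2-fold rise.

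**Figure D1:**
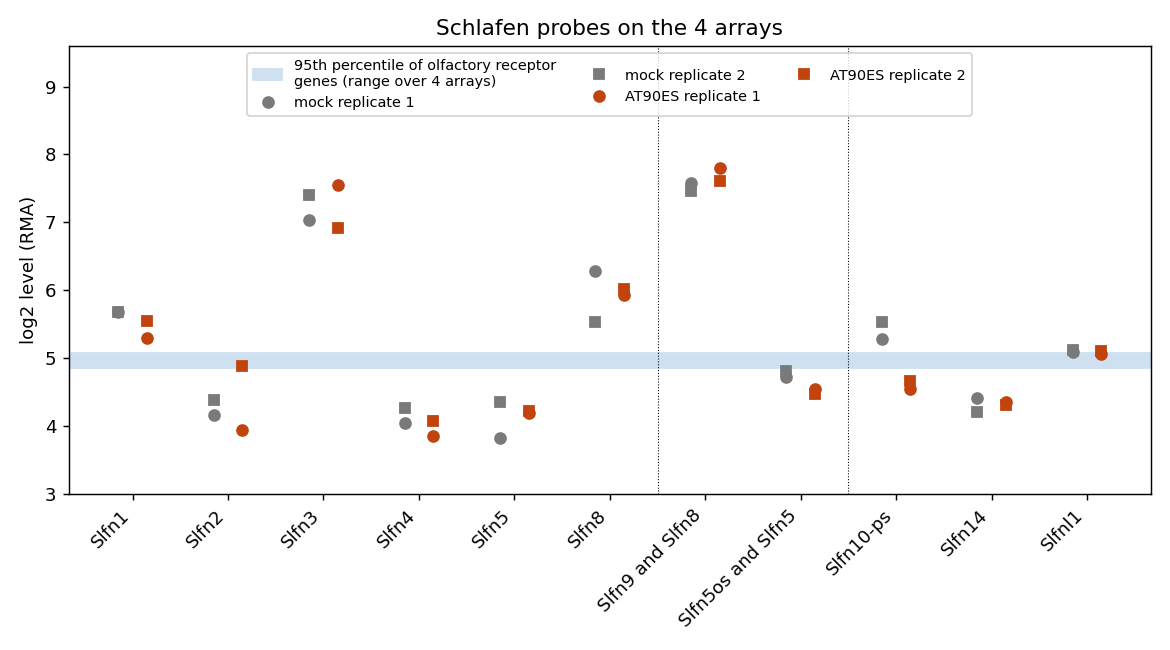
The log2 level (vertical axis) of each Schlafen probe is plotted on each of the 4 arrays, grey for mock and orange for AT90ES, circles for replicate 1 and squares for replicate 2. Dotted lines part the 6 genes with their own probe, the 2 probes of several symbols and 3 other Schlafen loci, and the blue band is the range over arrays of the 95th percentile of olfactory receptor genes (4.85 to 5.07). Slfn2, Slfn4 and Slfn5 lie under that percentile on every array, and of the 6 genes Slfn1 alone has groups that do not overlap.

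Slfn1, the founding member, is known for halting the growth of thymocytes. Mock cells had log2 levels of 5.67 and 5.68, and AT90ES cells of 5.30 and 5.54. Both AT90ES arrays were lower than both mock arrays, as they were for 22.1% of all genes. The log2 fold change was -0.25 ± 0.13 (SE, n = 2 arrays per group, limma adjusted p = 0.64), with a 95% interval of -0.59 to 0.08. The mock arrays lay 0.0059 apart, at the 2.11th percentile of gaps over all genes, while the AT90ES arrays lay 0.24 apart.

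Slfn2 keeps resting T cells quiescent and is known to shield tRNA from cleavage. Its log2 level was 4.17 and 4.38 in mock cells and 3.93 and 4.88 in AT90ES cells. The AT90ES arrays held both the highest and the lowest value, and their gap of 0.95 was wider than in 99.6% of genes. The group means differed by 0.14 ± 0.31 on the log2 scale (SE), with an interval of -0.63 to 0.90, the widest of the 6 genes. It stood at 0.61 without AT90ES replicate 1 and at -0.34 without AT90ES replicate 2. All 4 values lay under the olfactory receptor percentile, so the direction of Slfn2 rests on single arrays at a level near background.

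Slfn3, of the intermediate group, is known from T cells and from differentiation of gut epithelium. It had log2 levels of 7.04 and 7.40 in mock cells and of 7.55 and 6.92 in AT90ES cells. The AT90ES arrays again spanned the mock arrays, here with replicate 1 the highest and replicate 2 the lowest of the 4. The log2 fold change of 0.01 ± 0.24 (SE) had an interval of -0.59 to 0.61. It was -0.30 without AT90ES replicate 1 and 0.33 without AT90ES replicate 2. Slfn3 lay above the olfactory receptor percentile on all 4 arrays.

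Slfn4 belongs to the same length group and is known from myeloid cells, where interferon raises it. It was read at log2 levels of 4.04 and 4.27 without and of 3.85 and 4.07 with AT90ES. The groups overlapped, and all 4 values lay under the olfactory receptor percentile. Its log2 fold change was -0.19 ± 0.15 (SE), with an interval of -0.55 to 0.17.

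Among the long members, Slfn5 is known as an interferon target in melanocytes and melanoma cells of humans. It was measured at log2 levels of 3.82 and 4.35 in mock cells and of 4.19 and 4.22 in AT90ES cells. Both AT90ES values fell between the mock values, and all 4 were under the olfactory receptor percentile. Between groups the log2 fold change was 0.12 ± 0.19 (SE), with an interval of -0.36 to 0.60. Without mock replicate 1 it was -0.15 and without mock replicate 2 it was 0.39.

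Slfn8, another long member, is expressed in thymus and in activated T cells. Its own probe read 6.28 and 5.53 in mock cells, with AT90ES values of 5.93 and 6.02. As for Slfn5, the AT90ES values fell between the mock values. The mock gap of 0.75 was wider than in 98.6% of genes, and the AT90ES gap was 0.09. AT90ES minus mock gave a log2 fold change of 0.07 ± 0.25 (SE), with an interval of -0.55 to 0.69. It was 0.44 without mock replicate 1 and -0.30 without mock replicate 2.

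The probe shared by Slfn9 and Slfn8 gave the only reading of Slfn9, another long member. It read 7.58 and 7.46 in mock cells and 7.80 and 7.61 in AT90ES cells. Both AT90ES arrays were above both mock arrays, as they were for 17.1% of all probes. With every probe tested separately, where 0.0726% of probes passed as higher, the log2 fold change was 0.18 ± 0.15 (SE, adjusted p = 0.855), with an interval of -0.20 to 0.56. It was 0.08 without AT90ES replicate 1 and 0.28 without AT90ES replicate 2. How much of the signal came from either gene cannot be told apart. The replicates of this probe lay 0.12 and 0.20 apart, against gaps of 0.75 and 0.09 for the probe of Slfn8 alone.

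The probe shared by Slfn5os and Slfn5 had a change of the opposite sign. It read 4.73 and 4.80 in mock cells and 4.54 and 4.48 in AT90ES cells. Both AT90ES arrays were below both mock arrays, as they were for 19.9% of all probes. Its log2 fold change was -0.26 ± 0.13 (SE, adjusted p = 0.776), with an interval of -0.59 to 0.08, and all 4 values lay under the olfactory receptor percentile. Neither shared probe passed in any fit tried.

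**Figure D2:**
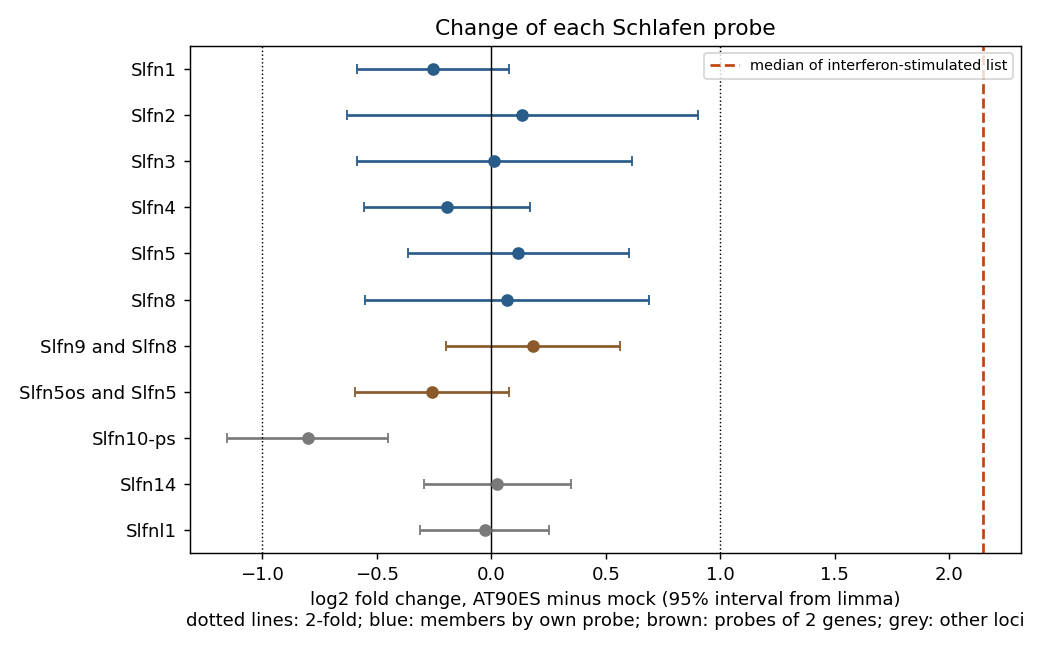
The log2 fold change of each Schlafen probe (horizontal axis, AT90ES minus mock) is plotted as a point with its 95% interval from limma; blue points are genes with their own probe, brown points probes of 2 genes and grey points other loci. The 6 blue intervals lie within the dotted 2-fold lines and cross 0, and the dashed line marks the median of the interferon-stimulated list at 2.15.

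Promoter sequences are shown for Slfn5, Slfn8 and Slfn9 because these members hold the core letters of the interferon-stimulated response element, a site of the interferon-driven factors Stat2 and Irf9, while their probes did not pass. RefSeq promoter windows, of 250 bases before to 50 bases after a gene's start in build GRCm38.p6, matched all 7 members by symbol, with 8 windows since Slfn8 has 2. Below are the 250 bases before the start, 5′ to 3′ on the gene's strand, with each match to GAAANNGAA, the core letters, on either strand in capitals.
Slfn5, chr11:82951852-82952101, plus strand: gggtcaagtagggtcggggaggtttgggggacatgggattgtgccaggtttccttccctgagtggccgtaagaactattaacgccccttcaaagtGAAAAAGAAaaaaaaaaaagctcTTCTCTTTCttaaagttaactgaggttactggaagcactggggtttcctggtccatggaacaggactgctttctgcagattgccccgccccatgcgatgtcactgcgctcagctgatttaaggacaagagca
Slfn8, chr11:83020811-83021060, minus strand: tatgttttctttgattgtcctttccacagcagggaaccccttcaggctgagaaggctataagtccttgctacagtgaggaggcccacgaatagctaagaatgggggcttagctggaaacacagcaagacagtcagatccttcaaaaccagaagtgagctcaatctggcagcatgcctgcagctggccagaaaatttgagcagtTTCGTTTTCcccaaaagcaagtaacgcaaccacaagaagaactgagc
Slfn9, chr11:82991831-82992080, minus strand: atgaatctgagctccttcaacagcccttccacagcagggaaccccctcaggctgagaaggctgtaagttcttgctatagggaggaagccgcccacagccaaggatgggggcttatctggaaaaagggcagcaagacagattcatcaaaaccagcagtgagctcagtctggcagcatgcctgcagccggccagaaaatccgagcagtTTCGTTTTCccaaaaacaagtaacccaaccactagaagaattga

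Slfn5 had a match at positions -155 to -147 relative to the start, where a longer run of A begins, and another on the opposite strand at -132 to -124. Those of Slfn8 and Slfn9 lay on the opposite strand at -47 to -39 and -44 to -36, with the same letters in both. The promoters of Slfn8 and Slfn9, aligned end to end, were identical at 206 of 242 aligned positions (85.1%). Between any other pair of Schlafen genes in the table that share was at most 69.8%. Slfn1, Slfn2, Slfn3 and Slfn4 had no match in their windows. In all, 4 of the 8 windows of the members (50%) held the letters. The 2 windows of Slfn8 overlap and hold the same match, so it was counted in both. It lies at -47 to -39 in the window shown and at -135 to -127 in the other. The letters were in 19 of 33 windows of the interferon-stimulated list (57.6%) and 2812 of 32851 windows of all genes (8.56%). With a further A required at the end the counts were 4 of 8, 17 of 33 and 1131 of 32851 (3.44%). A match is a description of the letters, not of a bound site.

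A further 3 motifs were searched in the same windows on both strands, and none of their matches overlapped those above. The letters TTCNNNGAA of the gamma-activated site were in 0 of 8 Schlafen windows and 8.3% of all windows. The kB letters GGANTTTCC were in 0 of 8 and 1.25%. The AP-1 letters TGANTCA were in 1 of 8, that of Slfn4, and in 7.81%. Of all genes tested that had a window with GAAANNGAA, 23 of 1576 (1.46%) were higher in AT90ES cells, against 50 of 15414 (0.324%) of those without. Within the interferon-stimulated list 11 of 16 genes with these letters (68.8%) and 8 of 9 without (88.9%) were higher. Slfn5 and Slfn8, the Schlafen family members with these letters and a probe of their own, were not. Slfn14, a Schlafen gene not counted among the members, also held these letters, at positions -197 to -189. Slfn14 was not higher either (limma adjusted p = 0.971). Slfn5 and Slfn14 lay under the olfactory receptor percentile on all 4 arrays, so their readings set no limit on the change of the transcripts.

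Other Schlafen loci outside the 7 genes were read on the same arrays. Slfn10-ps, a Schlafen pseudogene between Slfn8 and Slfn2, had log2 levels of 5.27 and 5.54 in mock cells and of 4.54 and 4.67 in AT90ES cells. Both mock arrays lay above the olfactory receptor percentile and both AT90ES arrays under it, and the groups did not overlap. The log2 fold change of -0.80 ± 0.14 (SE) had an interval of -1.15 to -0.45. It did not pass (limma adjusted p = 0.178, unadjusted p = 0.00158), and it passed with an intensity trend in the spread (adjusted p = 0.0377, range over the alternatives 0.0377 to 0.681). Close relatives lie in the same cluster, and whether its probe also reads them was not tested.

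Slfn14, a ribosome-bound nuclease of red cell and platelet precursors, had values of 4.20 to 4.41 on the 4 arrays, all under the olfactory receptor percentile. Its log2 fold change was 0.03 ± 0.13 (SE). Slfnl1, a more distant relative on another chromosome, had values of 5.05 to 5.12 and a log2 fold change of -0.03 ± 0.11.

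The genes beside the cluster on chromosome 11 did not pass either. In the RefSeq gene table of GRCm38.p6 the list took the 5 protein-coding genes on each side of the 7 members, Slfn14 included, of which 9 were compared. In limma 0 of 9 were higher or lower, also at an unadjusted p under 0.05, with a median log2 fold change of 0.05. Of all genes 0.415% were higher and 0% lower after adjustment, and 4.5% and 4.59% at the unadjusted threshold. With 9 genes, a count of 0 does not set them apart from all genes. The largest was 0.20, that of Rad51d, a recombination gene. Of the pair with the highest levels, Ap2b1, a clathrin adaptor subunit, stood at 0.05 and Nle1, a ribosome assembly factor, at 0.01. Beyond Slfn14 the first measured gene past the threshold along the chromosome was Ccl5, a T cell chemokine, chosen for mention after its values were seen. Nearest to it, Taf15 at 0.47 and Heatr9 at 0.49 did not pass (limma adjusted p = 0.375 and 0.509, unadjusted p = 0.00942 and 0.0366). Between them and the listed genes, 1700020L24Rik at -0.21 and Mmp28 at -0.09 had intervals that crossed 0. The table places 8 protein-coding genes between Slfn14 and Ccl5, and the log2 level of Ccl5 rose from 5.86 and 5.84 to 12.14 and 12.21 (adjusted p = 8.48e-05).

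**Figure D3:**
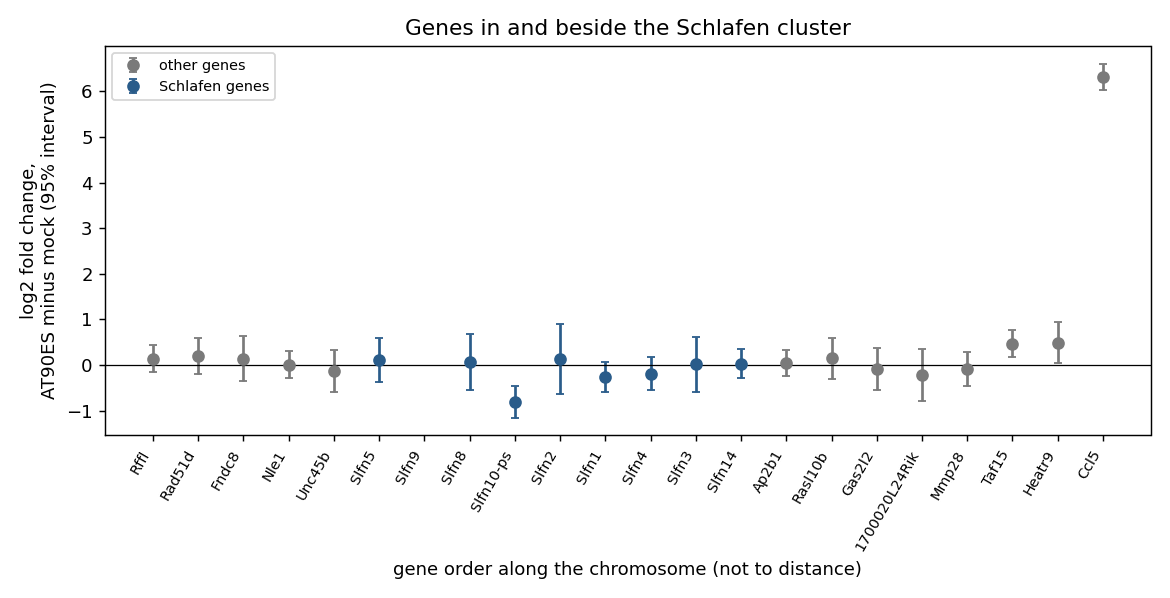
Log2 fold changes (vertical axis, AT90ES minus mock, with 95% intervals from limma) are plotted for measured genes in gene order, not distance, from the fifth gene before the Schlafen cluster to Ccl5, with Schlafen genes in blue. Slfn9 has no probe of its own. The Schlafen genes lie near 0 except Slfn10-ps at -0.80, and Ccl5 stands at 6.32.

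The interferon-stimulated list shows what the same arrays recorded for genes of the pathway to which Schlafen genes are assigned. Of 35 measured members 27 were higher, 0 lower and 8 did not pass, with a median log2 fold change of 2.15. Of all genes 0.415% were higher and 0% lower. The largest rises were those of Ifit1, which binds foreign RNA, at 6.05 ± 0.12 (SE), Ifih1, an RNA sensor, at 5.69 ± 0.24, Mx2, an antiviral GTPase, at 4.41 ± 0.13, and Gbp7, a guanylate-binding protein, at 4.36 ± 0.17. Of the Schlafen genes above the olfactory receptor percentile, the upper bounds were 0.08 for Slfn1, 0.61 for Slfn3 and 0.69 for Slfn8, under the list's median. The difference between the family and the list was not itself tested. Mx2 had a mock level of 3.99, under the olfactory receptor percentile like those of Slfn2, Slfn4 and Slfn5, and reached 8.41. Whether the probes of Slfn2, Slfn4 and Slfn5 could record such a rise was not tested. The number of list members called higher fell to 17 without AT90ES replicate 1 and to 17 without AT90ES replicate 2, and the 92 genes called higher in all fell to 47 and 44 without mock replicates 1 and 2 and to 32 and 35 without AT90ES replicates 1 and 2.

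At an unadjusted p under 0.05, 32 of the 35 (91.4%) were higher and 1 (2.86%) lower, where 4.5% and 4.59% of all genes were. The 8 members that did not pass are all given here. Of these, 5 had intervals above 0. They were Eif2ak2, a kinase that halts translation, at 0.73 ± 0.13 (SE), Ifi35 at 0.66 ± 0.12, Bst2, which tethers budding viruses, at 0.64 ± 0.16, Oas1g at 0.56 ± 0.20 and Zbp1, a nucleic acid sensor, at 0.43 ± 0.13. Oas1g lay under the olfactory receptor percentile on all 4 arrays. The interval of Oas2 lay under 0, with a change of -0.33 ± 0.12. Ifit3 at 0.02 ± 0.13 and Oas3 at -0.25 ± 0.23 had intervals that crossed 0, as did the 6 Schlafen genes.

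Interferon signalling genes, which give, carry or brake the signal to the response element, numbered 16 with a probe. Of these, 3 rose and 13 did not pass in either direction, with a median of 0.09, where 0.415% of all genes rose. At an unadjusted p under 0.05, 6 of the 16 (37.5%) were higher and 0 lower, where 4.5% and 4.59% of all genes were. Usp18, a brake on the receptor that is also on the interferon-stimulated list, rose by 2.78 ± 0.16 (SE). Stat2 rose by 1.98 ± 0.12 and Irf9, its partner, by 1.26 ± 0.13. Irf1, which binds the same element, stood at 1.23 ± 0.16 and did not pass (adjusted p = 0.0622). Ifnb1, the first interferon of most cells, had values of 2.89 to 3.29 on the 4 arrays, under the olfactory receptor percentile.

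**Figure D4:**
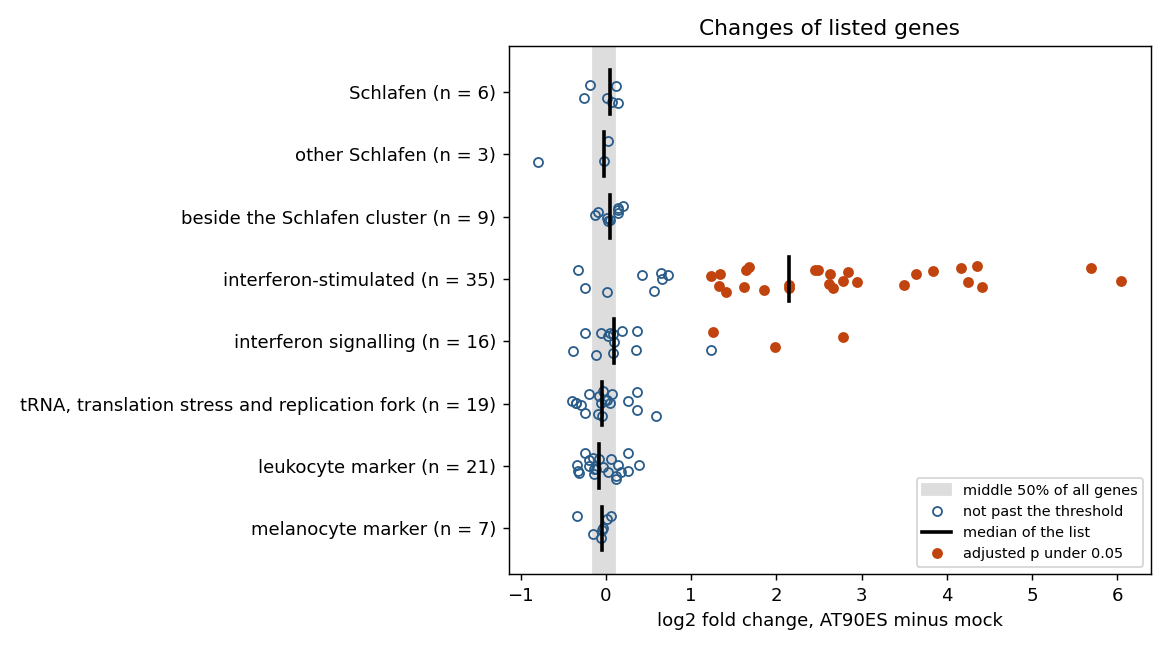
Each point is a gene, placed by its log2 fold change (horizontal axis, AT90ES minus mock), with lists in rows, filled orange points past the adjusted threshold of 0.05 and a black bar at the median of each list. The 6 Schlafen genes lie near the grey band that holds the middle 50% of all genes, and the interferon-stimulated list has its median at 2.15.

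A further list took genes from the processes in which Schlafen proteins act, tRNA handling, translation stress and replication forks. It had 0 of 19 measured members higher or lower, with a median of -0.05, where 0.415% of all genes were higher and 0% lower. At an unadjusted p under 0.05, 3 of the 19 (15.8%) were higher and 3 (15.8%) lower, beside 4.5% and 4.59% of all genes. Its members of highest level were Dhx9, an RNA and DNA helicase, at -0.09 and Sars, the tRNA ligase for serine, at 0.36 ± 0.12 (SE, adjusted p = 0.461). With an intensity trend in the spread 3 members passed as higher. Leukocyte and platelet markers, of the cells in which Schlafen genes are best known, had 0 of 21 members higher or lower, with a median of -0.08. At an unadjusted p under 0.05, 0 of the 21 were higher and 2 (9.52%) lower, against 4.5% and 4.59% of all genes. Cd68, a lysosomal protein of macrophages, stood at -0.15 and Coro1a, an actin regulator of leukocytes, at -0.14. The summed log2 level of the 21 markers was 99.8 to 100.4 in mock and 97.9 to 100.8 in AT90ES cells. Of the 7 melanocyte markers 0 were higher or lower, with a median of -0.05, and 1 (14.3%), Mitf, was lower at an unadjusted p under 0.05, where 4.59% of all genes were.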

How the data were processed

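The authors deposited a log2 level for each of 41345 probes on each array, from RMA according to the submitters' processing notes; software and settings are not given in the sources used. RMA equalises arrays, so changes are relative to the other genes. For arrays, their number limits the precision. Genes were named from the platform annotation: 23521 probes had 1 symbol, 1814 several and 16010 none. Of those with 1 symbol, 23328 matched a RefSeq gene of GRCm38.p6 by gene ID, and 0 had another symbol there. Of several probes for a gene, the one with the highest mean stood for it, giving 22180 genes.

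The 2 groups were compared with limma 3.58.1 (R 4.3.3; lmFit, eBayes), two-sided, with no covariate and no filter, and p-values were adjusted by Benjamini-Hochberg over all genes at a threshold of 0.05. Each gene had 2 residual degrees of freedom, to which the shared spread added 3.70. Since no label names separate cultures, p-values measure only the spread between samples, which may be technical. An exact permutation test of 2 against 2 arrays cannot go below p = 0.333 and was not used. The steps were tested on simulated data.

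The Schlafen members and the lists were chosen with earlier results of these data known. The text names all 7 members and 3 further Schlafen loci, up to 4 genes past the threshold per list or else the 2 of highest level, and Stat2, Irf9, Irf1 and Ifnb1. Outside this rule, and after their values were seen, further genes are named too. They are Rad51d, Mitf, Ptprc, Ccl5, Taf15, Heatr9, 1700020L24Rik, Mmp28 and the 8 interferon-stimulated members that did not pass. Genes of like pattern were to be named only for members past the threshold, of which there were none.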

Additional observations from a re-analysis of the deposited data

How the results depend on the processing

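In each of 13 alternatives 0 Schlafen genes passed as higher or lower; with dim probes left out only Slfn1, Slfn3 and Slfn8 were tested. Of 134 comparisons of single Schlafen loci and shared probes with their reported value, 133 stayed on the same side of the threshold and 1 passed, Slfn10-ps at -0.80 with an intensity trend. The sign changed in 9, none of them past the threshold, for Slfn2, Slfn3, Slfn5, Slfn8 and Slfn14. Over the alternatives Slfn1 ran from -0.38 to -0.13, Slfn4 from -0.30 to -0.08 and Slfn10-ps from -0.93 to -0.67. With an intensity trend 431 genes were higher and 162 lower, and 3 members of the tRNA, translation stress and replication fork list were higher. With dim probes left out 160 were higher and 6 lower, and with arrays centred on their median 127 were higher and 1 lower. With every probe tested separately 28 genes and 16 interferon-stimulated members were higher. Without each array in turn 32 to 47 genes and 17 to 21 interferon-stimulated members were higher. A lone array is then assumed to vary like the other group. The replicate numbers share no stated source. Deviations of same-numbered arrays correlated at -0.22 across 22180 genes. With the replicate block 85 genes were higher, 0 lower and 0 Schlafen genes passed. With the crossed pairing, chosen after seeing the data, 59 were higher. Levels near the olfactory receptor percentile limit what could be seen for Slfn2, Slfn4 and Slfn5.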
